A study of Mus musculus with 48 samples.

Results

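The comparison described here set the dentate gyrus contralateral to a kainate injection on day 7 against the same tissue on day 3, with 4 mice on each day. These 8 libraries were picked by their labels alone (side, injection and day) from the 48 RNA-seq libraries of the series. Kainate, an agonist of kainate-type glutamate receptors, was injected into the hippocampus of wild-type C57BL/6J mice on a single side, a procedure that models mesial temporal lobe epilepsy. The dorsal dentate gyri of both sides were taken on day 3, 7 or 14, the injected side being called the epileptogenic zone (EZ) and the opposite side the peri-ictal zone (PIZ). Control mice received saline in place of kainate. The mice were 6 to 8 weeks old by the design text and 8 to 10 weeks old by the study's methods, and each group held 2 males and 2 females. The day 3 kainate libraries came from mice 38, 30, 44 and 42, and the day 7 libraries from mice 23, 26, 21 and 35. Each of the 8 libraries was a separate mouse, so no mouse was followed over time. The PIZ received no kainate directly, and the tissue was a microdissected gyrus with all of its cell types, in which fewer cells of a type and less RNA per cell cannot be told apart.

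The dentate gyrus is built of granule cells, excitatory neurons whose axons reach CA3, and it holds a niche in which new granule cells are born in adult mice. After seizures its astrocytes and microglia become reactive. Reactive astrocytes make more of the intermediate filament proteins GFAP and vimentin, a set of secreted protease inhibitors and matrix proteins, while microglia divide and alter their surface receptors. Oligodendrocyte precursor cells also divide in adult grey matter and pass through a short committed stage before they make myelin. Days 3 and 7 fall in the latent period of this model, before spontaneous seizures are usual, and the comparison asks how the uninjected side changed between them.

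The 8 libraries held between 19842312 and 24718937 counts assigned to genes. Values are given as CPM, a gene's count relative to its library's total after scaling by the trimmed mean of M values, in the mouse order above. All 8 libraries expressed the granule cell genes Prox1, Dsp, C1ql2, Calb1 and Lct, which were named for this check after their values were seen. The library of mouse 21 stood apart from the other day 7 libraries. Its first principal component score was 66.2, against 17 to 22.8 for the other day 7 libraries and -43 to -18.4 for day 3. It held 102 CPM of Prox1, the homeobox factor of granule cells, against 210 to 236 CPM in the other day 7 libraries and 212 to 251 CPM on day 3. Lct was 9.51 CPM in mouse 21 and 97.6 to 103 CPM in the other day 7 libraries, and Dsp and C1ql2 were also lowest in mouse 21. Calb1 went the other way, at 72.9 CPM in mouse 21 and 46.2 to 71.1 CPM in the other day 7 libraries. The summed level of a granule cell list was 2980 CPM in mouse 21 against 4460 to 4990 CPM, of a mossy cell list 911 CPM against 353 to 487 CPM, and of a list of meninges and fibroblast markers 180 CPM against 64.1 to 102 CPM. Whether the dissection of mouse 21 differed was not tested. The total count of calls and the counts of several gene lists are also given without it, and the other counts only with it. Total counts, genes detected and the shares of mitochondrial, ribosomal protein and highest-expressed genes did not separate the days (exact permutation tests, p = 0.1143 to 0.4, two-sided, the smallest p possible being 0.0286).

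Between day 3 and day 7 the PIZ of kainate mice changed mostly by decrease. A differentially expressed gene (DEG) had a fold change over 1.5 and, in edgeR's quasi-likelihood test fitted over all 48 libraries, a p under 0.01 after Benjamini-Hochberg adjustment. Of 21390 genes tested, 163 were downregulated on day 7 (0.762% of genes tested) and 26 were upregulated (0.122%). The downregulated genes had a median log2 fold change of -1.72, against -0.000844 over all genes tested, and 56 of them fell more than 4-fold. At an unadjusted p under 0.05 there were 3708 genes (17.3% of those tested), the share beside which the unadjusted counts of gene lists are to be read. The upregulated genes had a median of 1.06, and 5 of them rose more than 4-fold. In 157 of the 163 downregulated genes every day 7 library lay below every day 3 library, and in 22 of the 26 upregulated genes every day 7 library lay above. Over all genes tested, 1948 (9.11%) lay all below and 1017 (4.75%) all above. In the PIZ of saline mice, the same comparison of days called no gene (0% of genes tested), with 591 genes at an unadjusted p under 0.05 in edgeR and 1 call by DESeq2.

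Leaving out a mouse, in this and the other comparisons within the PIZ, removed its PIZ library and kept its EZ library in the fit. The number of DEGs changed with the libraries fitted. It was 81 without mouse 21 (64 lower and 17 higher), 70 without mouse 30, 99 without mouse 44, 104 without mouse 35 and 117 without mouse 26. It was 865 when only the 24 PIZ libraries were fitted, 788 lower (3.68% of genes tested) and 77 higher (0.360%), which are the shares beside the counts of that fit given for gene lists.

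**Figure D1:**
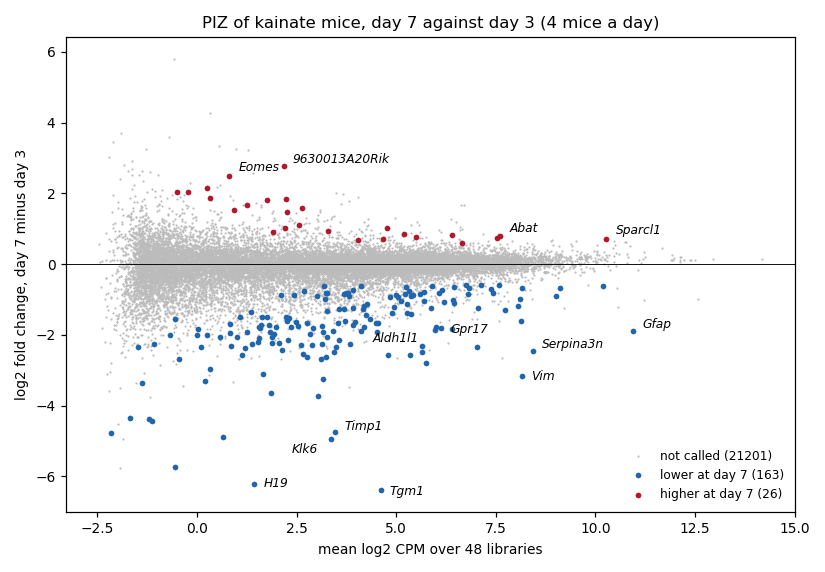
Log2 fold change of each tested gene in the PIZ of kainate mice, day 7 over day 3 (vertical axis), against its mean level as log2 CPM (horizontal axis), with the called genes coloured by direction. The 163 downregulated genes outnumber the 26 upregulated genes, and the largest decreases reach -6.39 on the log2 scale.

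Genes of reactive astrocytes were among the largest decreases. Of 34 tested genes on a list of reactive astrocyte genes, 10 were downregulated and none upregulated, and the list's median log2 fold change was -1.11. Gfap, whose intermediate filament protein reactive astrocytes make more of, was 4110, 4550, 4400 and 4420 CPM on day 3 and 1560, 1150, 591 and 1370 CPM on day 7. The days did not overlap, and mouse 21 was the lowest of the day 7 mice. Gfap fell 3.74-fold (log2 fold change -1.90, SE 0.41, edgeR adjusted p = 0.00477), while saline PIZ libraries of day 7 averaged 338 CPM, below all 4 kainate libraries. The call for Gfap was lost when mouse 21, 26, 30, 35 or 44 was left out, its direction staying the same.

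Vim, which encodes vimentin, was 492, 730, 807 and 577 CPM on day 3 and 90.3, 80.8, 40.8 and 79.9 CPM on day 7. Every day 7 library was below every day 3 library, and the fall was 8.93-fold (log2 fold change -3.16, SE 0.51, edgeR adjusted p = 0.000237). Timp1, an inhibitor of matrix metalloproteinases, was 15.0, 26.9, 14.0 and 15.2 CPM on day 3 and 0.655, 0.543, 0.724 and 0.72 CPM on day 7. Its day 7 libraries held 13 to 16 counts each, and the log2 fold change was -4.74 (SE 0.77, adjusted p = 0.000233). Tgm1, a transglutaminase that cross-links proteins, was 37, 45.6, 25.7 and 45.3 CPM on day 3 and 0.14, 0.627, 0.317 and 0.72 CPM on day 7. Tgm1 had the largest log2 fold change of any downregulated gene, -6.39 (SE 0.97, adjusted p = 0.000101), although with 3 to 15 counts in each day 7 library its exact size is loosely set. Clcf1, a cytokine of the interleukin-6 family, fell from between 8.3 and 19.5 CPM to between 1.27 and 2.97 CPM, but it overlaps another gene model on the same strand and its reads could be shared with it.

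Summed over the reactive astrocyte list, the PIZ held 5740, 7140, 6670 and 6160 CPM on day 3 and 2170, 1670, 1030 and 1940 CPM on day 7. The day 7 sums stayed above the 639 to 778 CPM of saline PIZ libraries of the same day. In the EZ of kainate mice the sums were 9150 to 10300 CPM on day 3 and 7320 to 11000 CPM on day 7, so the days overlapped there. Gfap made up most of the PIZ sums. Without it they were 1630, 2600, 2270 and 1730 CPM on day 3 and 600, 520, 442 and 567 CPM on day 7, against 329 to 412 CPM in saline PIZ of day 7. The days still did not overlap, and in the EZ the sums without Gfap were 3630 to 5430 and 1780 to 4310 CPM. The count of 10 downregulated members went to 5 without mouse 21, to 4 without mouse 30, to 6 without mouse 26 and to 18 when only PIZ libraries were fitted.

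**Figure D2:**
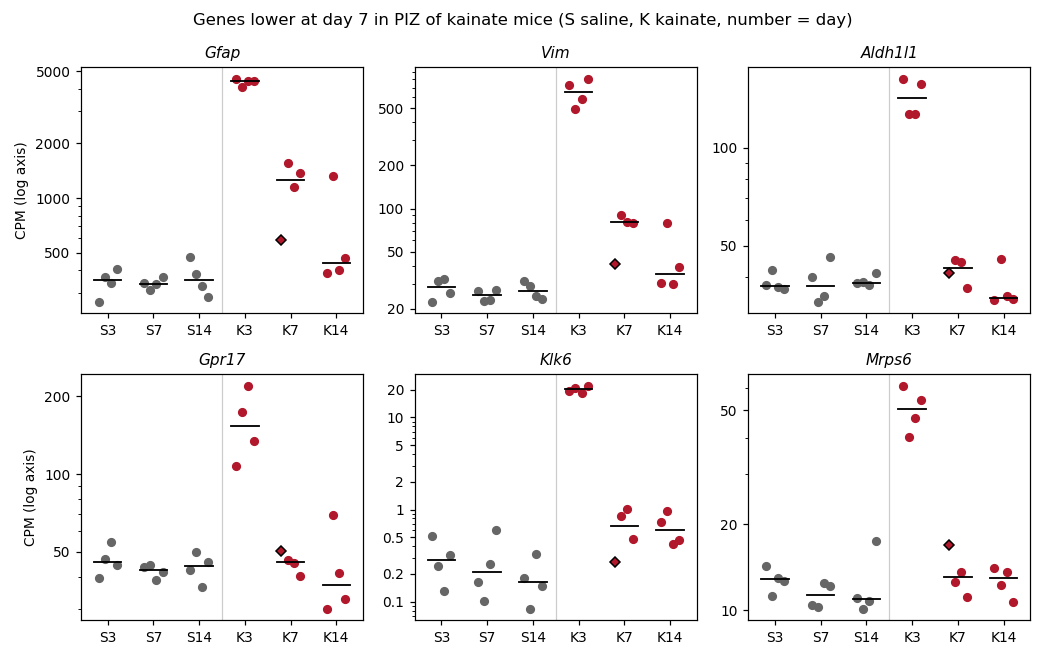
CPM (logarithmic axis) of Gfap, Vim, Aldh1l1, Gpr17, Klk6 and Mrps6 in each PIZ library (points) of saline mice (S, grey) and kainate mice (K, red) on days 3, 7 and 14, with a line at each group's median and a diamond for mouse 21. In all 6 genes the 4 kainate libraries of day 7 sit below the 4 of day 3.

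Genes that astrocytes use at rest held fewer calls by number. Of 20 tested homeostatic astrocyte genes 4 were downregulated, none was upregulated and the median log2 fold change was -0.39. The first of them, Aldh1l1, a folate enzyme widely used as a marker of all astrocytes, had the smallest p of the whole comparison. It was 127, 163, 156 and 127 CPM on day 3 and 45.1, 44.5, 41.1 and 37.1 CPM on day 7. The day 7 libraries were close to each other and to the saline PIZ of day 7, which averaged 38.7 CPM, and the fall was 3.42-fold (log2 fold change -1.77, SE 0.17, edgeR adjusted p = 2.44e-08).

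Atp1b2, a subunit of the sodium pump found in astrocytes, was 660, 718, 750 and 725 CPM on day 3 and 443, 394, 302 and 383 CPM on day 7, a fall of 1.87-fold (adjusted p = 0.000353). Kcnj10, the inward rectifier through which astrocytes clear potassium, was 462, 482, 423 and 480 CPM on day 3 and 298, 261, 161 and 210 CPM on day 7, a fall of 1.99-fold (adjusted p = 0.00186). The days did not overlap for either gene, and mouse 21 was the lowest in both. Fgfr3, a fibroblast growth factor receptor, fell 1.51-fold, just past the fold threshold, and its call was lost without mouse 21, 26, 30, 35 or 38. The most abundant member, the glutamate transporter gene Slc1a2, was not called. It was 2400 to 3040 CPM on day 3 and 3180 to 4170 CPM on day 7 (log2 fold change 0.45, edgeR adjusted p = 0.069). The 4 calls went to 2 without mouse 21 and to 2 without mouse 35. Summed over the list, the PIZ held 7810 to 10100 CPM on day 3 and 7500 to 9650 CPM on day 7, so the days overlapped. Saline PIZ libraries of day 7 held 7700 to 8540 CPM.

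Among the genes of smallest p outside the lists, several encode enzymes and binding proteins. Dhrs1, a dehydrogenase, was 262, 307, 289 and 288 CPM on day 3 and 64.5, 54.7, 48.4 and 58.1 CPM on day 7 (log2 fold change -2.35, SE 0.32, edgeR adjusted p = 2.95e-05). Prdx6, an antioxidant peroxiredoxin, was 359, 360, 501 and 561 CPM on day 3 and 186, 213, 167 and 217 CPM on day 7. The days of both genes lay far apart, and the day 7 libraries of Dhrs1 differed little from each other. Lgals1, which encodes galectin-1, fell from between 73.7 and 117 CPM to between 10.5 and 20.9 CPM (log2 fold change -2.57). Hspb6, a small heat shock protein, fell from between 22.3 and 29.9 CPM to between 2.94 and 7.06 CPM (log2 fold change -2.47). Lgi4, a secreted glial protein, was 63.2, 70.2, 88.3 and 73.6 CPM on day 3 and 41.4, 46.0, 30.1 and 46.6 CPM on day 7, a 1.8-fold fall. The mitochondrial ribosome gene Mrps6 also fell, from between 40.3 and 61.0 CPM to between 11.1 and 16.8 CPM, but its locus overlaps Slc5a3 on the same strand and reads of the pair may be mixed.

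H19, an imprinted long noncoding RNA that is silent in most adult tissue, was 7.84, 13.8, 11.5 and 5.58 CPM on day 3 and 0.14, 0.167, 0.0453 and 0.144 CPM on day 7. Each day 7 library held 1 to 4 counts of it, against 117 to 336 counts on day 3. The size of its log2 fold change, -6.22 (SE 0.85, edgeR adjusted p = 2.86e-05), is therefore loosely set. Saline PIZ libraries of day 7 averaged 0.0794 CPM of H19.

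Gene families recurred among the decreases, and 2 of them were counted after their values had been seen. All 11 tested S100a genes, which encode small calcium-binding proteins, had negative log2 fold changes, with a median of -1.67, and 7 were downregulated. Of these S100a13 fell from between 26.9 and 31.4 CPM to between 10.4 and 13.2 CPM, and S100a4 from between 17.0 and 44.8 CPM to between 1.09 and 3.37 CPM. S100a4 overlaps the gene model Gm42674 on the same strand, which fell with it. All 11 tested Serpina3 genes, which encode secreted serine protease inhibitors, also had negative log2 fold changes, with a median of -2.36, and 7 were downregulated, among them Serpina3j at -3.10. These genes are near-identical copies in a cluster on chromosome 12, so the split of reads between them is uncertain. The background for both counts is the 0.762% of all tested genes that were downregulated.

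Some genes of oligodendrocyte precursors fell. Of 10 tested precursor genes 2 were downregulated, with a list median of -0.41. Gpr17, a receptor of committed precursors that are about to make myelin, was 174, 108, 134 and 220 CPM on day 3 and 46.2, 45.1, 50.2 and 40.2 CPM on day 7 (log2 fold change -1.81, SE 0.29, edgeR adjusted p = 0.000233). Neu4, a sialidase of the same lineage, was 21.6, 13.1, 13.3 and 22.2 CPM on day 3 and 7.81, 7.56, 7.06 and 6.77 CPM on day 7. For both genes the day 7 libraries were nearly equal, mouse 21 included, and the day 3 libraries spread more widely. Saline PIZ libraries averaged 42 CPM of Gpr17 and 8.49 CPM of Neu4 on day 7. Ptprz1, the most abundant member, passed the adjusted p (0.000751) at a log2 fold change of -0.53, under the fold threshold.

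Klk6, a secreted protease made by oligodendrocytes in the adult brain, was 21, 19.3, 22.2 and 18.6 CPM on day 3 and 0.842, 1.0, 0.272 and 0.48 CPM on day 7 (log2 fold change -4.94, SE 0.82, adjusted p = 0.000316). It held 6 to 24 counts in each day 7 library. None of 18 tested genes of mature oligodendrocytes was called by edgeR over all libraries or by DESeq2, 5 had an unadjusted p under 0.05 (3 higher, 2 lower), and the median was 0.26. With only PIZ libraries fitted, 2 of the 18 were upregulated and 2 downregulated. Mbp, a main protein of myelin, was 1100, 736, 962 and 1340 CPM on day 3 and 1990, 1560, 1270 and 1240 CPM on day 7, with the days overlapping (adjusted p = 0.296).

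Genes of dividing cells were lower on day 7. All 22 tested genes on a list of mitosis genes had negative log2 fold changes, from -2.20 to -0.37, with a median of -1.76, and 8 were downregulated. The summed level of the list was 145, 189, 189 and 193 CPM on day 3 and 70, 72.7, 38.9 and 67.1 CPM on day 7, against 29.2 to 35 CPM in saline PIZ libraries of day 7. The days did not overlap, and mouse 21 was the lowest. In the EZ the sums were 307 to 815 CPM on day 3 and 92.6 to 434 CPM on day 7.

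The promoters of these genes can be read beside the values, since genes of the late cell cycle are known to share CCAAT boxes and a cell cycle homology region near their starts. Windows from 250 bases before to 50 bases after each start were taken from RefSeq on GRCm38.p6 and were found for 18 of the 22 genes. Both strands were searched for 4 motifs: the CCAAT box, the letters TTTGAA of the homology region, the AP-1 motif TGANTCA and the STAT motif TTCNNNGAA. The STAT motif can overlap the letters of the homology region. CCAAT was found for 16 of the 18 genes (88.9%), against 41.1% of all 27025 genes with a window. TTTGAA was found for 13 of the 18 (72.2%), against 20.2% of all genes. The AP-1 and STAT motifs were found for 0 of the 18, against 8.97% and 9.55% of all genes. Over the 118 downregulated genes that had a window the shares were 42.4% for CCAAT, 20.3% for TTTGAA, 13.6% for AP-1 and 10.2% for STAT. Over the 20 upregulated genes with a window they were 65%, 25%, 10% and 5% in that order. Over the 30 tested reactive astrocyte genes with a window they were 36.7%, 13.3%, 20% and 20% in that order. These are matches of letters and not measured binding sites. The 120 bases before the start are shown for 4 downregulated mitosis genes, chosen after their matches were seen because they show the motifs close to the start, each from 5′ to 3′ on the strand of the gene, with CCAAT and TTTGAA in capitals (its reverse complement, ATTGG or TTCAAA, where it lies on the other strand). Ccnb2 lies at chr9:70421555-70421674 on the minus strand, Aurka at chr2:172370571-172370690 on the minus strand, Ube2c at chr2:164769809-164769928 on the plus strand and Prc1 at chr7:80294356-80294475 on the plus strand.
Ccnb2: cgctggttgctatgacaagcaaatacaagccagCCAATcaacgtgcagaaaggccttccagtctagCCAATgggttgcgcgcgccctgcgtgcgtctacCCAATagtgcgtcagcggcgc
Aurka: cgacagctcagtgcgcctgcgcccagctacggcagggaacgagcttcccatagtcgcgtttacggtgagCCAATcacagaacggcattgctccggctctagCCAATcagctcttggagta
Ube2c: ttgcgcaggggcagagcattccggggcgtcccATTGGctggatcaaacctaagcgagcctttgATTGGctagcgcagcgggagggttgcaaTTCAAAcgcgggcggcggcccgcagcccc
Prc1: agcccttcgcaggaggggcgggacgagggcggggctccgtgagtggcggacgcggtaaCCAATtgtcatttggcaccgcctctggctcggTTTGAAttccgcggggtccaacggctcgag

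Ccnb2, the cyclin B2 whose upstream stretch carries 3 CCAAT matches, was 2.91, 5.08, 5.99 and 4.10 CPM on day 3 and 1.40, 1.38, 0.543 and 0.864 CPM on day 7 (log2 fold change -2.10, SE 0.44, edgeR adjusted p = 0.00404). Aurka, a kinase of the spindle poles with 2 matches, was 3.43, 3.32, 3.84 and 4.44 CPM on day 3 and 1.45, 1.55, 1.40 and 1.49 CPM on day 7 (log2 fold change -1.35, SE 0.26, adjusted p = 0.00198). The day 7 libraries of Aurka were nearly equal, mouse 21 included. Nusap1, a spindle protein whose window held neither motif, fell by 1.92 on the log2 scale, and Tpx2, which activates Aurora A, fell by 1.66. The most abundant member, Mki67, the proliferation marker Ki-67, was 19.6, 27.6, 26.7 and 23.1 CPM on day 3 and 8.37, 8.40, 2.35 and 8.21 CPM on day 7. It missed the adjusted p threshold (log2 fold change -1.83, SE 0.45, adjusted p = 0.0175), although the days did not overlap.

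The count of 8 calls among mitosis genes fell whichever of the 8 mice was left out. In 20 of the 22 genes every day 7 library lay below every day 3 library, against 9.11% of all genes tested. None was called without mouse 21, 2 each without mouse 30, 35 or 44, 4 each without mouse 26 or 42, 5 without mouse 23 and 7 without mouse 38. With only PIZ libraries fitted 18 were called, and by DESeq2 13. Fewer were called by limma-voom without quality weights, 2 with mouse as a random block and 3 without it, and 0 when tested against a fold of 1.5, and with at least 10 counts required in every library 3 of 12 were called. Of 20 tested S phase genes only Uhrf1, which couples DNA methylation to replication, was downregulated, from between 6.83 and 10.7 CPM to between 0.996 and 3.26 CPM, and that call too was lost without mouse 21. All 20 had negative log2 fold changes, with a median of -0.50. Pcna, the sliding clamp of DNA polymerase, was 34.4 to 39.4 CPM on day 3 and 23.2 to 36.8 CPM on day 7 and was not called (adjusted p = 0.152).

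**Figure D3:**
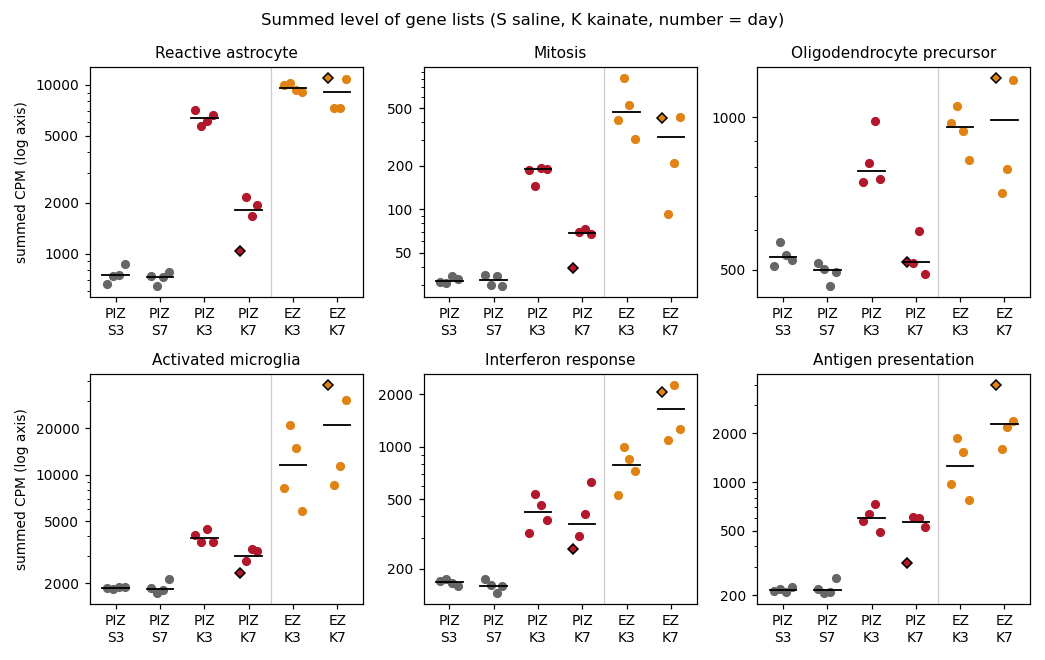
Summed CPM (logarithmic axis) of 6 gene lists in each library (points) of saline PIZ (grey), kainate PIZ (red) and kainate EZ (orange) on days 3 and 7, with a line at each group's median and a diamond for mouse 21. In the kainate PIZ the mitosis sums are 145 to 193 on day 3 and 38.9 to 72.7 on day 7, whereas the interferon response sums overlap between the days.

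Genes of microglia were lower on day 7 by their medians, but the fit over all libraries called none of those on the 2 lists. Of 14 tested homeostatic microglia genes none was called (9 with an unadjusted p under 0.05 and lower, 2 called by DESeq2) and the median was -0.73. Of 25 activated microglia genes none was called (13 with an unadjusted p under 0.05 and lower, 2 called by DESeq2), with a median of -0.59. When only the 24 PIZ libraries were fitted, 10 of the 14 and 12 of the 25 were downregulated and 1 of the 25 was upregulated. P2ry12, the purine receptor by which resting microglia sense injury, was 85.3, 85.1, 88.8 and 87.9 CPM on day 3 and 41.2, 58.7, 37 and 48.6 CPM on day 7. Its day 3 libraries were nearly identical and lay above all of day 7, but its adjusted p was 0.0169 (log2 fold change -0.90, SE 0.22). Ctsd, the lysosomal protease cathepsin D and the most abundant activated microglia gene, was 1180, 1370, 1080 and 1450 CPM on day 3 and 469, 663, 372 and 670 CPM on day 7 (log2 fold change -1.22, SE 0.44, adjusted p = 0.128). Cst3, the secreted inhibitor of cathepsins, went the other way in value (893 to 1310 CPM on day 3, 898 to 1430 CPM on day 7), with the days overlapping.

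Among 19 complement genes, Itgam, the CD11b subunit of complement receptor 3, was the only DEG. It was 110, 189, 163 and 146 CPM on day 3 and 29.8, 60.3, 26.8 and 53.3 CPM on day 7 (log2 fold change -1.84, SE 0.41, edgeR adjusted p = 0.00743). The call was lost when mouse 21, 23, 26, 30, 35, 42 or 44 was left out, and a gene model overlaps Itgam on the same strand. The list median was -0.91, and 10 of the 19 were downregulated when only PIZ libraries were fitted. None of 33 tested cytokine and chemokine genes was called (16 with an unadjusted p under 0.05, 13 of them lower, and 2 by DESeq2), with a median of -0.55, and 7 of the 33 were downregulated when only PIZ libraries were fitted.

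Markers of infiltrating leukocytes moved with these lists. Of 20 such markers 10 passed the filter on low counts, all 10 with negative log2 fold changes (median -1.0), and none was called over all libraries or by DESeq2. At an unadjusted p under 0.05 there were 5, all lower, and with only PIZ libraries fitted 1 was downregulated. Their summed level was 40.7, 49.2, 43.4 and 56.3 CPM on day 3 and 22.9, 32.7, 19.2 and 29.4 CPM on day 7, so the days did not overlap. The most abundant member was Ptprc, the pan-leukocyte antigen that microglia also carry, at 23.3 to 31.2 CPM on day 3 and 8.37 to 17.3 CPM on day 7. Cd4 and Trbc2, which mark T cells, held 1 to 9 and 1 to 8 counts per library, and the neutrophil gene S100a9 was at 0 in 3 of the 8 libraries. The part of leukocytes in the microglial values was not tested.

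Genes of the interferon response held no call. None of 27 tested members was called under any setting tried, DESeq2 included (1 with an unadjusted p under 0.05), and the median was -0.10. The summed level was 537, 322, 380 and 466 CPM on day 3 and 309, 414, 258 and 628 CPM on day 7, with the highest library on day 7, and was 145 to 175 CPM in saline PIZ of day 7. In the EZ the interferon sums were 528 to 996 CPM on day 3 and 1100 to 2270 CPM on day 7. None of 23 antigen presentation genes was called in the PIZ by edgeR over all libraries or by DESeq2 (5 with an unadjusted p under 0.05, 4 of them lower, median -0.29), although 1 was downregulated when only PIZ libraries were fitted, and B2m, the light chain of MHC class I, was 152 to 267 CPM on day 3 and 97.1 to 225 CPM on day 7.

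Calls among matrix and adhesion genes were made in both directions. Of 44 tested genes, Timp1, Itgb8 and Ncan were downregulated and Sparcl1 and Bcan upregulated, with a median of -0.45. At an unadjusted p under 0.05, 16 were lower and 4 higher, and with only PIZ libraries fitted 15 were downregulated and 3 upregulated. Without mouse 21 the calls were 1 lower and 2 higher, without mouse 30 they were 2 lower and 0 higher, and without mouse 26, 35 or 44 only 1 was higher. Itgb8, an integrin subunit that activates TGF-beta, fell from between 133 and 197 CPM to between 71.7 and 109 CPM, and Ncan, the proteoglycan neurocan, from between 323 and 446 CPM to between 199 and 270 CPM. Sparcl1, the astrocyte-secreted synaptogenic protein hevin, was 890, 749, 839 and 1060 CPM on day 3 and 1460, 1510, 1460 and 1370 CPM on day 7 (log2 fold change 0.71, SE 0.14, edgeR adjusted p = 0.00159). All day 7 libraries lay above day 3, near the mean of 1359 CPM in saline PIZ of day 7.

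**Figure D4:**
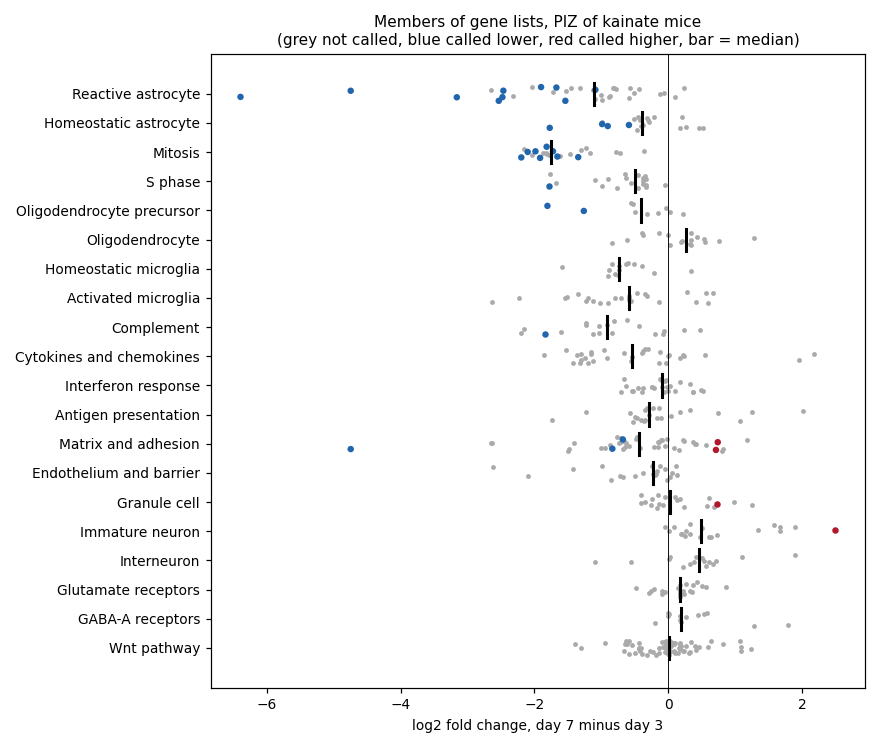
Log2 fold change, day 7 over day 3 in the PIZ of kainate mice, of every tested member of 20 gene lists (points; called lower in blue, called higher in red, not called in grey), with a bar at each list's median. All 22 mitosis genes lie below 0, with a median of -1.76, and the interferon response genes lie around their median of -0.10.

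Of the 26 upregulated genes 4 were on a list (Sparcl1, Bcan, Eomes and Gfra2). The gene of smallest p, 9630013A20Rik, a long noncoding RNA gene, was 1.74, 1.15, 1.48 and 2.62 CPM on day 3 and 12.9, 11.7, 11.6 and 11.6 CPM on day 7 (log2 fold change 2.78, SE 0.35, edgeR adjusted p = 8.33e-06). The 4 day 7 libraries were nearly equal and above the saline PIZ of day 7, which averaged 2.87 CPM, and kainate PIZ libraries of day 14 averaged 2.17 CPM. Atp10b, a lipid flippase, was 1.09, 0.614, 0.52 and 0.859 CPM on day 3 and 3.13, 2.84, 3.26 and 1.97 CPM on day 7 (log2 fold change 1.86, SE 0.23, adjusted p = 8.33e-06), against means of 0.763 CPM in saline PIZ of day 7 and 1.22 CPM in kainate PIZ of day 14. Abat, which degrades GABA, was 143, 107, 125 and 177 CPM on day 3 and 211, 255, 273 and 217 CPM on day 7 (log2 fold change 0.79, SE 0.11, adjusted p = 3.5e-05). Every day 7 library lay above every day 3 library, and the saline PIZ of day 7 averaged 209 CPM.

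Tmem163, a zinc transporter, was 2.71, 1.80, 2.40 and 2.53 CPM on day 3 and 7.86, 6.94, 12.7 and 6.29 CPM on day 7, with mouse 21 the highest (log2 fold change 1.84, SE 0.34). Hes5, a Notch target of neural stem cells and astrocytes, was 1.74, 1.31, 0.959 and 0.525 CPM on day 3 and 2.29, 4.60, 7.29 and 1.87 CPM on day 7. The days of Hes5 nearly met, and its call was lost without mouse 21, 26, 30, 42 or 44. Cyp4f15, a cytochrome P450, rose from between 1.52 and 3.39 CPM to between 4.49 and 8.28 CPM, and Tprkb, a subunit of a tRNA-modifying complex, from between 41.9 and 77.1 CPM to between 84.4 and 126 CPM. Prxl2a, a peroxiredoxin-like protein, rose 1.53-fold from between 58.6 and 82.5 CPM to between 99.2 and 112 CPM. The other upregulated genes named by p or size were the noncoding or little-studied Gm11681, 2900052N01Rik, 2810407A14Rik and Gm14569, and Rnase1, a secreted ribonuclease, of which Gm14569 and Rnase1 overlapped between the days.

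**Figure D5:**
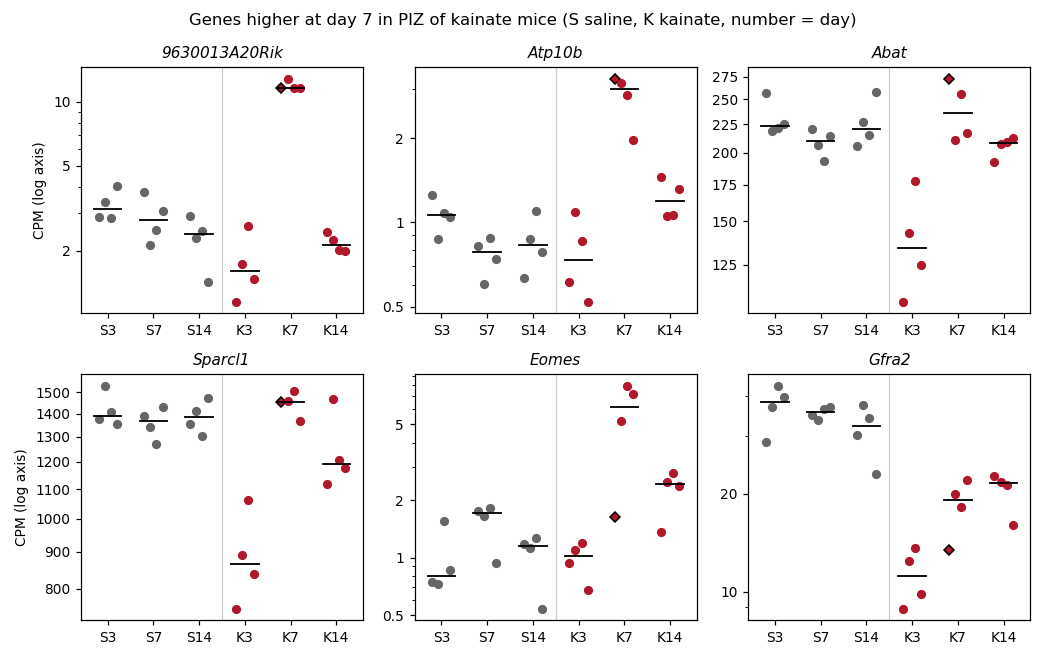
CPM (logarithmic axis) of 9630013A20Rik, Atp10b, Abat, Sparcl1, Eomes and Gfra2 in each PIZ library (points) of saline mice (S, grey) and kainate mice (K, red) on days 3, 7 and 14, with a line at each group's median and a diamond for mouse 21. The 4 day 7 libraries of 9630013A20Rik lie between 11.6 and 12.9 CPM, above the 1.15 to 2.62 CPM of day 3.

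Neuronal lists held few calls. Of 20 genes of immature neurons and their progenitors, Eomes, a T-box factor of intermediate progenitors, was the only DEG. It was 1.09, 0.942, 0.679 and 1.19 CPM on day 3 and 5.19, 7.98, 1.63 and 7.20 CPM on day 7 (log2 fold change 2.49, SE 0.52, edgeR adjusted p = 0.00404), with mouse 21 the lowest of day 7 and still above day 3. Saline PIZ libraries of day 7 averaged 1.54 CPM of it, and the call was lost when mouse 26, 30, 35, 38 or 44 was left out. The list's median was 0.48, and 10 members had an unadjusted p under 0.05, all higher on day 7. With only PIZ libraries fitted 4 members were upregulated, and without mouse 21 there were 2. None was called by limma-voom without quality weights, with mouse as a random block or without it, or when at least 10 counts were required in every library. Of 20 mature granule cell genes only Gfra2, the receptor of neurturin, was upregulated, from between 8.85 and 13.6 CPM to between 13.4 and 22.0 CPM. Its days overlapped, its call was lost without mouse 23, 26, 30, 35 or 44, and the list median was 0.03.

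No member was called by edgeR over all libraries or by DESeq2 among 24 glutamate receptor genes (median 0.18, 2 with an unadjusted p under 0.05), 13 GABA-A receptor genes (median 0.18, 4 with an unadjusted p under 0.05) or 28 synaptic vesicle genes (median 0.21, 6 with an unadjusted p under 0.05), and with only PIZ libraries fitted 1 synaptic vesicle gene was upregulated. Gria1, the most abundant glutamate receptor gene, was 693 to 882 CPM on day 3 and 905 to 1140 CPM on day 7 (adjusted p = 0.546). The Wnt pathway, which the study examined in this model, held no call among 73 tested genes by edgeR over all libraries or by DESeq2 (14 with an unadjusted p under 0.05, 9 of them lower), with a median of 0.02, and 3 of the 73 were downregulated when only PIZ libraries were fitted. Its most abundant member, the kinase gene Camk2a, was 2590 to 3370 CPM on day 3 and 3070 to 4000 CPM on day 7 (adjusted p = 0.642).

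Marker genes of neighbouring tissue were read for the same libraries. Markers of CA1 pyramidal cells, 8 genes, were all higher in value on day 7 (median 0.68, none called), with sums of 170, 280, 296 and 352 CPM on day 3 and 462, 519, 416 and 371 CPM on day 7, while saline PIZ libraries of day 7 spanned 144 to 650 CPM. Median log2 fold changes were 0.17 for CA3, 0.06 for thalamus, 0.11 for neocortex, 0.28 for choroid plexus, 0.26 for meninges, -0.23 for blood and -0.13 for pericytes, with no call in any of these lists. The part of CA1 tissue in the neuronal values was not tested.

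To ask whether the change between days depended on kainate, the day 7 minus day 3 difference of saline PIZ libraries was subtracted from that of kainate PIZ libraries in the same model. This interaction was called for 5 genes, 3 higher (0.0140% of genes tested) and 2 lower (0.00935%), with 2270 at an unadjusted p under 0.05. Aldh1l1 had a difference of log2 changes of -1.78 and Lgi4 of -0.95, while 9630013A20Rik had 2.98, Atp10b 2.34 and Abat 0.94. The saline means on days 3 and 7 were 38.5 and 38.7 CPM for Aldh1l1 and 231 and 209 CPM for Abat. Gfap (adjusted p = 0.18) and Vim (adjusted p = 0.061) missed the threshold in this test. The count was 33 by DESeq2 and 201 when only PIZ libraries were fitted, and it was 2 without mouse 30, 33, 34 or 44, 3 without mouse 18 or 21 and 12 without mouse 35. Scaling by library size alone kept 3 higher and 1 lower. Over the 16 fits that each left out a mouse, Aldh1l1 and Atp10b were called in all 16, 9630013A20Rik in 12, Abat in 10 and Lgi4 in 4.

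The next comparison asked whether the day change of the EZ differed from that of the PIZ in the kainate mice. In kainate mouse 21 the sides lay at opposite ends of day 7, since its EZ held the highest activated microglia sum (38000 CPM) and its PIZ the lowest (2340 CPM). Because both sides of each mouse were sequenced, the fit with mouse as a block is given beside the fit without it. Without the block 37 genes were called, 33 with a higher (0.154% of genes tested) and 4 with a lower (0.0187%) day change in the EZ than in the PIZ. With mouse as a replicate block there were 101, 91 higher and 10 lower, and 34 of the 37 were called in both. Leaving out a mouse removed both of its sides here. Without the block the count was 0 without mouse 21, 1 without mouse 42, 5 without mouse 38, 9 without mouse 35, 16 without mouse 30, 138 without mouse 26 and 152 without mouse 23. Without mouse 21 the difference of log2 changes was 1.45 for Aldh1l1, 1.75 for P2ry12 and 1.06 for Gpam (1.59, 2.02 and 1.19 with it). It was -1.57 for Abtb3, -3.27 for 9430081H08Rik and -0.65 for Gnb5 (-1.79, -3.26 and -0.78 with it).

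Aldh1l1 had the smallest p again (difference of log2 changes 1.59, SE 0.24, edgeR adjusted p = 0.000923). Its EZ libraries were 114 to 150 CPM on day 3 and 91.0 to 149 CPM on day 7, beside the PIZ fall from 127 to 163 CPM to 37.1 to 45.1 CPM. Several other genes that fell in the PIZ overlapped between the days in the EZ. Gpr17 was 87.6 to 125 CPM on day 3 and 74.7 to 204 CPM on day 7 in the EZ (difference 2.22), Klk6 was 29.7 to 55.6 and 9.69 to 75.7 CPM (difference 5.06), H19 was 7.27 to 14.4 and 1.53 to 11.7 CPM (difference 5.59) and Prdx6 was 402 to 559 and 334 to 774 CPM (difference 1.26). Atp1b2 (difference 1.07) and Neu4 (difference 1.84) were also called.

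P2ry12 was 42.8 to 88.2 CPM on day 3 and 86.8 to 165 CPM on day 7 in the EZ, against a value that was lower on day 7 in the PIZ (difference 2.02, SE 0.31, edgeR adjusted p = 0.000923). Siglech and Sall1, chosen after their values were seen as the other homeostatic microglia genes called, had differences of 2.5 and 1.71. Gpam, an enzyme of glycerolipid synthesis, was 144 to 177 CPM and 214 to 279 CPM in the EZ and 154 to 175 CPM and 89.5 to 129 CPM in the PIZ on the 2 days (difference 1.19). In the opposite direction, Abtb3 was 4.71 to 10.4 CPM on day 3 and 3.06 to 4.08 CPM on day 7 in the EZ and 6.31 to 8.16 and 8.69 to 19.5 CPM in the PIZ (difference -1.79), and Gnb5, a G protein beta subunit of neurons, had a difference of -0.78. The noncoding 9430081H08Rik had a difference of -3.26 at low levels, 0.205 to 0.62 CPM on day 3 and 0.561 to 0.768 CPM on day 7 in the PIZ.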

How the data were processed

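The 48 libraries were poly-A selected, stranded and paired-end. Per the study's methods and the submitters' processing notes, the authors trimmed reads with fastp 0.20.1, aligned them with HISAT2 2.2.1 to GRCm39 and counted them per gene with featureCounts (Subread 1.6.4, Gencode M28). The deposited values are raw counts per gene, neither normalized nor filtered, and 1 table holds all libraries. Counting allowed a read to be given to overlapping features and used the primary alignment of reads that map to several places, which leaves near-identical copies and same-strand overlaps uncertain. Of 55357 gene identifiers 54749 (98.90%) were given a symbol from the reference annotation. Group, side and day came from the labels. The mice of the 2 days were different animals, and p-values measure the spread between mice.

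Counts were filtered with filterByExpr, scaled by the trimmed mean of M values and fitted with 12 group means in edgeR 4.0.16 (R 4.3.3). A prior count of 2 entered the log2 CPM values, such as those behind the principal component. It did not enter the fold changes, which kept edgeR's default. A call needed a Benjamini-Hochberg adjusted p under 0.01 over all 21390 genes and a fold over 1.5, the study's thresholds. Both sides of a mouse come from the same animal, which pairs the EZ and PIZ libraries. The residual correlation of the sides ran from -0.0536 to 0.272 over the 8 kainate mice, and the side comparison was therefore also fitted with mouse as a block. The 2 days hold different mice and give no pairs. Alternatives were DESeq2 1.42.0, limma 3.58.1 with voom, other scalings, filters and thresholds, fits on fewer libraries, and leaving out each mouse. The scripts were tested on simulated counts. No pair of replicates was close enough in its counts to be a single library deposited a second time.

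The comparison, the 42 gene lists and the tests were chosen with earlier results of these data known. Genes named were, in each direction, the 12 called genes of smallest p and the 6 of largest change among genes with a mean log2 CPM over 1, up to 4 called members of each list and its most abundant member, the 3 called genes of smallest p in each other comparison, and any gene in a count of 5 or fewer. A few of these are not reported here. Promoter windows are RefSeq's on GRCm38.p6, a build other than that of the counts, and were matched by symbol. Depths of 19842312 to 24718937 counts in the 8 libraries compared limit genes under 1 CPM most. Intervals are not given for them because the tests use the spread between libraries within groups.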

Additional observations from a re-analysis of the deposited data

Results flagged for a closer look

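Among 248 groups of 4 libraries checked for a sample far from the others, 11 (4.44%) held one, about what chance flags (1 in 20). Mouse 21 was the distant day 7 sample 4 times, with 2.35 CPM of Mki67 (the others 8.21 to 8.40), 898 CPM of Cst3 (1400 to 1430), a mitosis sum of 38.9 CPM (67.1 to 72.7) and a potassium channel sum of 3380 CPM (3020 to 3080). Other day 7 samples were mouse 23 with 12.9 CPM of 9630013A20Rik (11.6 to 11.7) and a neuropeptide sum of 2310 CPM (1360 to 1520), and mouse 26 with 350 CPM of Ptprz1 (271 to 277). On day 3 they were mouse 30 with 26.9 CPM of Timp1 (14.0 to 15.2), mouse 44 with 154 CPM of Gpam (172 to 175), mouse 42 with 1310 CPM of Cst3 (893 to 959) and mouse 38 with a mitosis sum of 145 CPM (189 to 193).

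Differences between groups in the day change were called for 5 genes between kainate and saline PIZ. Their differences of log2 changes were -1.78 for Aldh1l1, -0.95 for Lgi4, 2.98 for 9630013A20Rik, 2.34 for Atp10b and 0.94 for Abat. Between the EZ and the PIZ of kainate mice 37 genes were called. Those named had differences of 1.59 for Aldh1l1, 2.02 for P2ry12, 1.19 for Gpam, 5.59 for H19, 5.06 for Klk6, 2.22 for Gpr17, 1.84 for Neu4, 1.26 for Prdx6, 1.07 for Atp1b2, -1.79 for Abtb3, -3.26 for 9430081H08Rik and -0.78 for Gnb5.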

How the results depend on the processing

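The count of 189 DEGs between the days in the kainate PIZ was 519 at an adjusted p under 0.05, 24 when tested against a fold of 1.5, 305 by DESeq2, 763 by limma-voom with quality weights, 411 with only the libraries compared, 865 with only the 24 PIZ libraries, and 70 to 182 when a mouse was left out. With mouse as a random block in limma-voom it was 170, and 175 without the block. The saline PIZ count of 0 was 1 by DESeq2. The kainate against saline count of 5 was, in the same order, 16, 0, 33, 141, 121 and 201, and 2 to 12 when a mouse was left out. The EZ against PIZ count of 37 was 322 at an adjusted p under 0.05, 0 against a fold of 1.5, 188 by DESeq2, 1581 by limma-voom with quality weights, 176 with mouse as a random block, 101 with mouse as a fixed replicate block, 9 with only the libraries compared, 21 with library size scaling, 20 with no filter, and 0 to 152 when a mouse was left out. The cause was not tested for these. Of 82 named genes 45 kept their direction and side of the threshold under every alternative. Over all 1709 values of these genes, 1557 stayed, 127 lost the call, 25 gained it and 0 reversed. Of 420 list medians 406 moved by less than the spread between day 7 mice. With 4 mice a day, genes of a few counts have the least certain fold changes.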
